A study of Rattus norvegicus with 6 samples.

Results

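The photoreceptor outer segment structure genes are 10 genes whose proteins build the disc stack of rods and cones or the matrix around it. They are Prph2, Rom1, Rp1, Rp1l1, Prom1, Cdhr1, Abca4, Impg1, Impg2 and Fscn2. A gene was measured where a probe row of the array carried its symbol alone, which held for 9 of the 10 genes, out of 18166 genes in all. Rp1l1 had no row named for it alone and was not analysed here.

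Retinal RNA of the HCDDP group, with 3 arrays, was compared with retinal RNA of the diabetic group, also with 3 arrays, on the Affymetrix Rat Gene 2.0 ST array. All rats were male SD rats, 5 weeks old at the start, made diabetic with a high fat diet for 4 weeks and streptozotocin at 30 mg/kg, a toxin of the insulin-producing cells. The HCDDP rats, labelled as Danshen-treated, were then gavaged with Compound Danshen Dripping Pill (CDDP), which holds Danshen, notoginseng and borneol, at 0.4 g/kg/d for 12 weeks, and the diabetic rats were given saline. The labels give an age of 17 weeks for all 6 samples, which is less than the age at the start, the diet and the gavage add up to. A retina is a mixture of cell types, so fewer cells of a type and less RNA per cell cannot be told apart from array signals. By histology, the study reported more cells in the outer nuclear layer, which holds the photoreceptor nuclei, with CDDP than in diabetic rats. In the electroretinogram, it reported larger b-waves and oscillatory potentials with CDDP but no significant change of the a-wave. How those counts and amplitudes relate to the array signals was not tested. Whether each array held the RNA of 1 rat is not stated, and the p-values may therefore measure only the technical spread between RNA samples. Non-diabetic rats were not analysed here.

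The outer segment is a modified cilium that captures light in a stack of membrane discs. New discs form at its base as the oldest ones are shed from its tip and taken up by the retinal pigment epithelium. Tetraspanins hold the disc rims in shape, microtubule proteins run along the stack as an axoneme, and a hyaluronan-rich matrix fills the space around the outer segments. Inherited defects of many of these genes cause photoreceptor degeneration in humans.

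Impg1 and Impg2, the matrix genes of the set, fell past the cutoffs of the study, a fold change over 1.5 and p under 0.05 without adjustment, when p came from limma, by 0.70 and 0.76 on the log2 scale. By the methods' t-test, the unpaired test that the study names for 2 groups, neither gene passed, and 0 of 9 genes were called, beside 0.595% of all genes lower. The calls below, past the threshold, are those of limma. The other 7 measured genes did not pass it, and none passed in the other direction. The 2 of 9 genes lower past the threshold stand beside 2.28% of all genes lower and 0.925% higher, 3.20% in either direction. Among the genes above the median signal, which include all 9, 3.66% were lower and 0.539% higher. No gene of the set passed an adjusted p of 0.05, which 0.00550% of all genes did, and 2 of the 9 had an unadjusted p under 0.05, against 6.05% of all genes. The median log2 difference of the 9 genes was -0.19, with 8 of 9 below 0, beside a median of -0.01 over all genes and of -0.05 over the genes above the median signal, of which 59% were below 0. In no gene of the set did the 3 HCDDP arrays separate from the 3 diabetic arrays, which 10.7% of all genes did.

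Impg1 encodes a hyaluronan-binding protein of the interphotoreceptor matrix. Its log2 signals were 8.40, 8.81 and 8.29 on HCDDP arrays 1 to 3, against 9.24, 9.69 and 8.69 on diabetic arrays 1 to 3. Diabetic arrays 1 and 2 were above every HCDDP array, while diabetic array 3 lay below HCDDP array 2. The means were 8.50 ± 0.28 in HCDDP and 9.21 ± 0.50 in diabetic retinas (SD, n = 3 each), a log2 difference of -0.70 (standard error 0.27, 95% interval -1.32 to -0.09). The signal was thus 1.63-fold lower (limma, p = 0.0303 and adjusted p = 0.782; exact two-sided permutation p = 0.2). The smallest p that the exact permutation test allows with 3 arrays against 3 is 0.1.

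Impg2 encodes the related matrix protein that is anchored in the photoreceptor membrane. It had log2 signals of 9.50, 9.87 and 9.48 on the HCDDP arrays and of 10.61, 10.91 and 9.61 on the diabetic arrays. The pattern was that of Impg1, with diabetic array 3 between the HCDDP arrays. The means were 9.61 ± 0.22 in HCDDP and 10.38 ± 0.68 in diabetic retinas (SD, n = 3 each), a log2 difference of -0.76 (standard error 0.32, 95% interval -1.50 to -0.03). The signal was 1.70-fold lower (limma, p = 0.0430 and adjusted p = 0.782; exact permutation p = 0.2).

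The calls of both matrix genes rested on several arrays. They were lost without HCDDP array 1 (differences of -0.65 for Impg1 and -0.70 for Impg2), HCDDP array 3 (-0.60 and -0.70), diabetic array 1 (-0.69 and -0.65) or diabetic array 2 (-0.46 and -0.50), while both differences stayed below 0. Without diabetic array 3 they widened to -0.96 for Impg1 and -1.14 for Impg2, the second with an adjusted p of 0.0381 by limma, but 8.21% of all genes were then lower past the threshold and 1.71% passed an adjusted p.

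**Figure D1:**
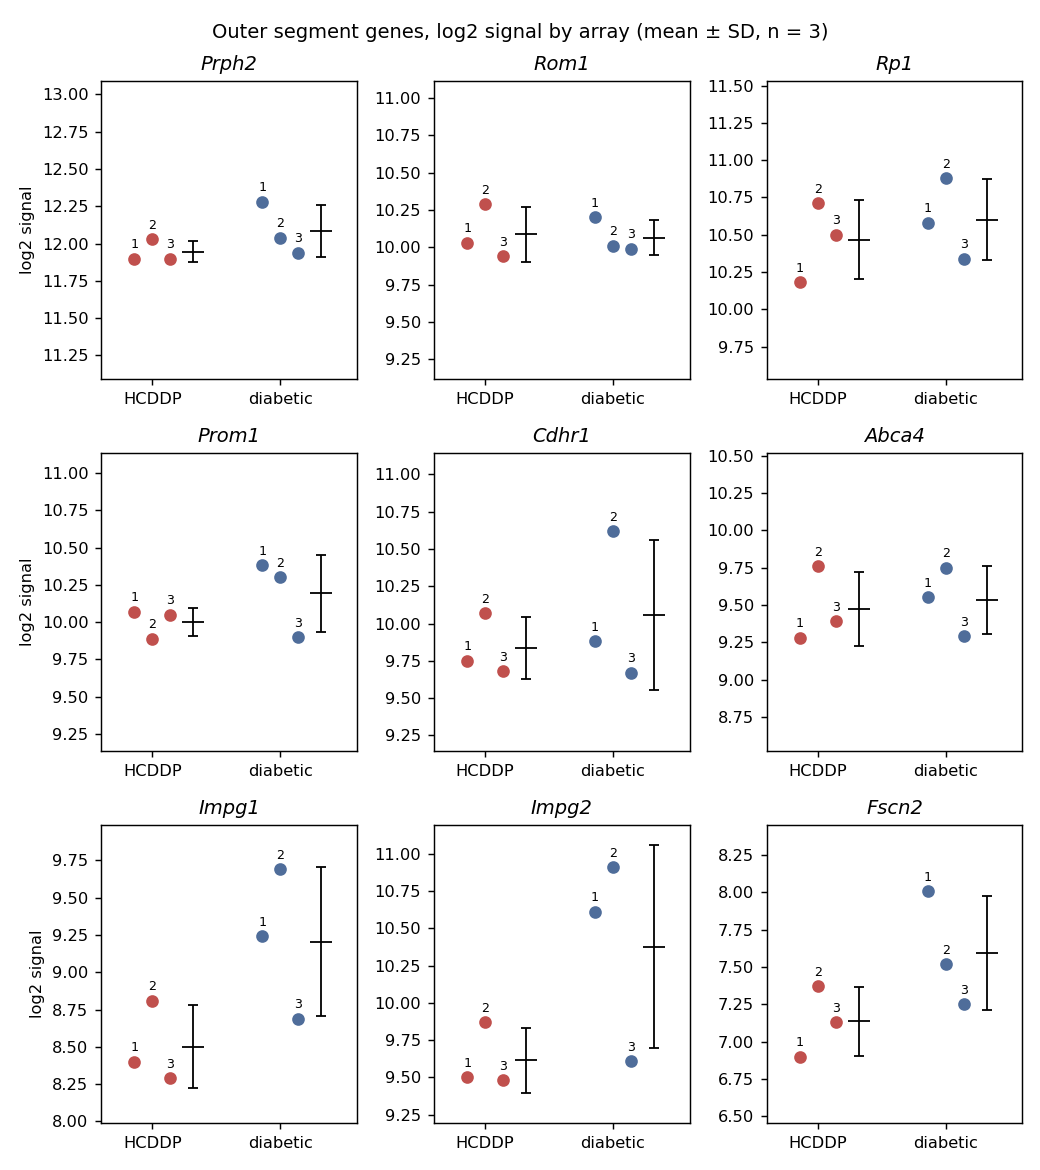
Log2 signals (vertical axis) of the 9 measured outer segment genes on the 3 HCDDP arrays (left in each panel) and the 3 diabetic arrays (right), with 1 point per array and the group mean and SD beside the points. Impg1 and Impg2 have group means of 8.50 and 9.61 in HCDDP and of 9.21 and 10.38 in diabetic retinas, and in every gene diabetic array 3 is below the highest HCDDP array.

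Promoter windows are shown for the 2 matrix genes, which moved together, and for the disc rim gene Prph2 as a gene that did not pass the threshold. Each window holds the 250 bases before the start of the gene in RefSeq, assembly GRCr8, on the minus strand of the chromosome and written 5′ to 3′ along the gene. Capitals mark the letters TAATC, or GATTA on the other strand, the core of the site bound by the photoreceptor transcription factor CRX and by OTX2, and in Prph2 the longer site TAATCC.
Impg1, chr8:90269904-90270153: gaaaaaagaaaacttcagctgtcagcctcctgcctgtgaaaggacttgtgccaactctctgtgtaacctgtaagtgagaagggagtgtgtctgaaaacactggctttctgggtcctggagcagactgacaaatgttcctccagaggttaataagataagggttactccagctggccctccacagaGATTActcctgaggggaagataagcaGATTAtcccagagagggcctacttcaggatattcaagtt
Impg2, chr11:57887451-57887700: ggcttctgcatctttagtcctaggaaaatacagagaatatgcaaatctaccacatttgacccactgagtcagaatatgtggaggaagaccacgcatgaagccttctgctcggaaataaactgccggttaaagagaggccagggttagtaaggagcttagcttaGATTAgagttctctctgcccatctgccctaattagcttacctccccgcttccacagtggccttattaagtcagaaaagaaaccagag
Prph2, chr9:21579075-21579324: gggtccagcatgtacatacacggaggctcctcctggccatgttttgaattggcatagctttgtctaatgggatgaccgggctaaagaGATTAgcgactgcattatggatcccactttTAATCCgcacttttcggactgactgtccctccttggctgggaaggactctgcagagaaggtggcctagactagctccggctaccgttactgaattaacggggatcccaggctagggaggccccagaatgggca

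A window was given for 8 of the 9 measured genes, Rp1 being the exception. The longer site TAATCC, or GGATTA, occurred in Prph2, 133 bases before the start, and in Abca4, 58 bases before it, thus in 2 of 8 genes, against 6.34% of 33469 rat promoters of the same length. The core TAATC or GATTA, which every longer site contains, occurred in 4 of 8 genes, against 20.5% of promoters. Impg1 held it 65 and 39 bases before the start and Impg2 87 bases before it, and Prph2 and Abca4 held it as well. The core was searched after the longer site had been seen to be missing from the windows of Impg1 and Impg2. The letters TGCTGA or TCAGCA, part of the site of Maf proteins such as the rod factor NRL, occurred in 0 of 8 genes and in 15.1% of promoters. A match describes letters only, and the matches were not shared by the 2 genes alone.

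The tetraspanins of the disc rim did not pass the threshold. Prph2, also called peripherin-2, forms the curved rim of each disc. It had log2 signals of 11.90, 12.03 and 11.90 on the HCDDP arrays and of 12.28, 12.04 and 11.94 on the diabetic arrays, so that only diabetic array 1 stood apart. Its log2 difference was -0.14, with a 95% interval of -0.51 to 0.24 (limma, p = 0.424; exact permutation p = 0.2). Rom1, the partner that joins Prph2 in the rim complex, had log2 signals of 10.03, 10.29 and 9.94 in HCDDP and of 10.20, 10.01 and 9.99 in diabetic retinas. The groups overlapped almost fully, with a log2 difference of 0.02 and a 95% interval of -0.37 to 0.41 (limma, p = 0.897; exact permutation p = 0.8), the only difference of the set above 0.

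Prom1 and Cdhr1 act at the base of the outer segment, where new discs form, and neither passed the threshold. Prom1 encodes prominin-1, a membrane protein of the edges of the nascent discs. Its log2 signals were 10.07, 9.89 and 10.05 in HCDDP and 10.38, 10.30 and 9.90 in diabetic retinas, a difference of -0.19 with a 95% interval of -0.61 to 0.23 (limma, p = 0.321; exact permutation p = 0.3). As for the matrix genes, diabetic arrays 1 and 2 were highest and diabetic array 3 lay within the HCDDP range. Cdhr1, a photoreceptor cadherin, had log2 signals of 9.75, 10.07 and 9.68 in HCDDP and of 9.88, 10.62 and 9.67 in diabetic retinas. Its log2 difference of -0.22 had a 95% interval of -0.82 to 0.38 (limma, p = 0.416; exact permutation p = 0.7) and rested on diabetic array 2, without which it was 0.06.

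Rp1, which binds the axoneme microtubules and aligns the discs, had log2 signals of 10.18, 10.71 and 10.50 in HCDDP and of 10.58, 10.88 and 10.34 in diabetic retinas. The groups overlapped, and the log2 difference of -0.14 had a 95% interval of -0.62 to 0.34 (limma, p = 0.533; exact permutation p = 0.5). Abca4 encodes the disc transporter that clears retinoid compounds from the disc interior. It had log2 signals of 9.28, 9.76 and 9.39 in HCDDP and of 9.55, 9.75 and 9.29 in diabetic retinas, a difference of -0.05 with a 95% interval of -0.51 to 0.40 (limma, p = 0.788; exact permutation p = 0.8). In both genes diabetic array 3 was below HCDDP array 3.

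Fscn2, an actin-bundling fascin of photoreceptors, came closest to the threshold among the genes that missed it. Its log2 signals were 6.90, 7.37 and 7.13 in HCDDP and 8.01, 7.52 and 7.25 in diabetic retinas. Diabetic array 1 was far above the rest, and HCDDP array 2 was above diabetic array 3. The means of 7.14 ± 0.23 and 7.59 ± 0.38 (SD, n = 3 each) gave a log2 difference of -0.46 with a 95% interval of -0.99 to 0.07, 1.37-fold (limma, p = 0.0803 and adjusted p = 0.782; exact permutation p = 0.2). Without diabetic array 3 the difference was -0.63 and passed the threshold (limma, adjusted p = 0.195), but 8.21% of all genes were then lower past it. Without diabetic array 1 the difference was -0.25, and without HCDDP array 1 it was -0.34, neither past the threshold.

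**Figure D2:**
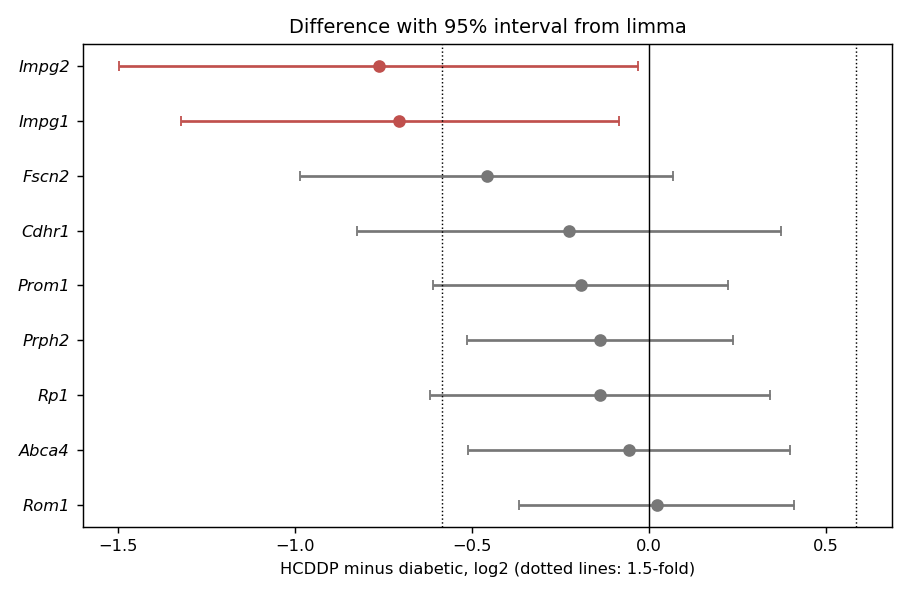
Log2 difference, HCDDP minus diabetic (horizontal axis), of each measured gene with its 95% interval from limma. The intervals of Impg1 (-1.32 to -0.09) and Impg2 (-1.50 to -0.03) lie below 0 and the other 7 include 0.

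The labels number the arrays without pairing them, and a pairing across the groups was not tested. Deviations from the group means correlated at 0.274, 0.292 and 0.445 between arrays of the same number. Arrays of unlike number were not compared in this way. With the replicate number as a block, the same 2 genes, Impg1 (limma, adjusted p = 0.292) and Impg2 (limma, adjusted p = 0.308), were lower past the threshold, beside 3.47% of all genes. By pair, the HCDDP array was below the diabetic array by a log2 difference of -0.83, -0.87 and -0.40 for Impg1 in pairs 1 to 3. For Impg2 the pair differences were -1.11, -1.05 and -0.13. For Fscn2 they were -1.10, -0.15 and -0.12. In pair 3, Impg2 and Fscn2 thus differed by little, and Impg1 by less than in the other pairs. Prph2 was lower by pair as well, at -0.37, -0.01 and -0.03, thus nearly equal in pairs 2 and 3. Including Prph2, 4 of the 9 genes were lower in all 3 pairs, against 19.6% of all genes.

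**Figure D3:**
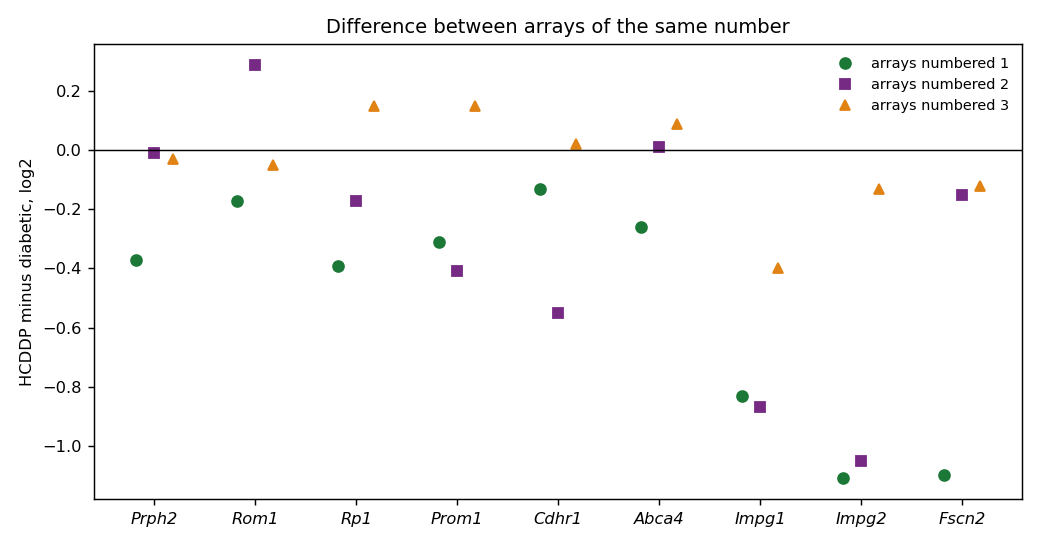
Log2 difference of each HCDDP array from the diabetic array of the same number (vertical axis), with 3 points per gene, 1 for each replicate number, and a line at 0. Impg2 has -1.11, -1.05 and -0.13 and Impg1 has -0.83, -0.87 and -0.40, while the pair differences of Rom1 (-0.17, 0.29 and -0.05) lie on either side of 0.

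The arrays differed in ways that the groups did not account for. The median log2 signal was 6.18 to 6.27 on the HCDDP arrays and 6.14 to 6.37 on the diabetic arrays, and the arrays numbered 3 had the narrowest spread of signals, 4.48 in HCDDP and 4.45 in diabetic retinas between the low and the high decile, against 4.92 to 5.19 on the other arrays. The median deviation of the 9 genes from their own means was -0.22, 0.01 and -0.14 on the HCDDP arrays and 0.26, 0.25 and -0.19 on the diabetic arrays. In 7 of the 9 genes the highest array was diabetic array 1 or 2, and in all 9 diabetic array 3 was below the highest HCDDP array.

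The labelled tissue was read from its markers first. Gnat1, the rod transducin, had log2 signals of 12.89, 12.82 and 12.70 in HCDDP and of 13.26, 13.27 and 12.90 in diabetic retinas, far above the median signal of every array. The retinal marker lists had a like pattern over the arrays. Rod markers, 11 of 15 measured, had a median log2 difference of -0.17, with 0 past the threshold. Their median deviation ran over -0.19 to 0.14 on the HCDDP arrays and over -0.16 to 0.27 on the diabetic arrays. Cone markers, with all 10 measured, had a median of -0.40, all 10 below 0 and 0 past the threshold, with array deviations of -0.42 to 0.08 in HCDDP and of -0.09 to 0.34 in diabetic retinas. Both photoreceptor lists were thus highest on diabetic arrays 1 and 2. After quantile normalization the medians were -0.05 for rod markers, with 6 of 11 below 0, and -0.31 for cone markers, with all 10 below 0.

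The remaining marker lists were retinal pigment epithelium (14 of 14 measured, median -0.24, 1 lower), Müller glia (10 of 11, -0.35, 1 lower), bipolar cells (9 of 10, -0.29, 1 lower) and ganglion and amacrine cells (16 of 16, -0.17, 0 lower). Their array deviations lay between -0.33 and 0.08 in HCDDP and between -0.18 and 0.51 in diabetic retinas. Markers of tissues outside the retina were read as well. Corneal and scleral stroma markers had a median of -0.59, with 6 of 12 lower, against 2.28% of all genes. The 6 were Kera, Prelp, Fmod, Mxra8, Chad and Abi3bp, all named by the study as changed on these same arrays. After quantile normalization the stroma median was -0.41, with 5 lower. Lens markers, 7 of 14 measured, had a median of -0.24, with 1 lower, which became 0.02 and 0 lower after quantile normalization. Intestinal epithelium markers had a median of -1.10, with 10 of 12 lower and 1 of them, Fabp2, a fatty acid binding protein of enterocytes, past an adjusted p (log2 difference -2.75, limma, adjusted p = 0.0365). The intestinal deviations were -0.61 to -0.47 on the HCDDP arrays and 0.18 to 0.85 on the diabetic arrays. Of the 10 intestinal markers lower, Fabp1, Fabp2, Si, Apob, Reg3b, Reg3g and Guca2a had also been named by the study as changed. Both lists were chosen with those results known, so their counts are not an independent reading of these tissues. After quantile normalization the intestinal median was -1.09, with 10 lower. No list had a marker higher past the threshold, and the part of these tissues in the differences of the outer segment genes was not tested.

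**Figure D4:**
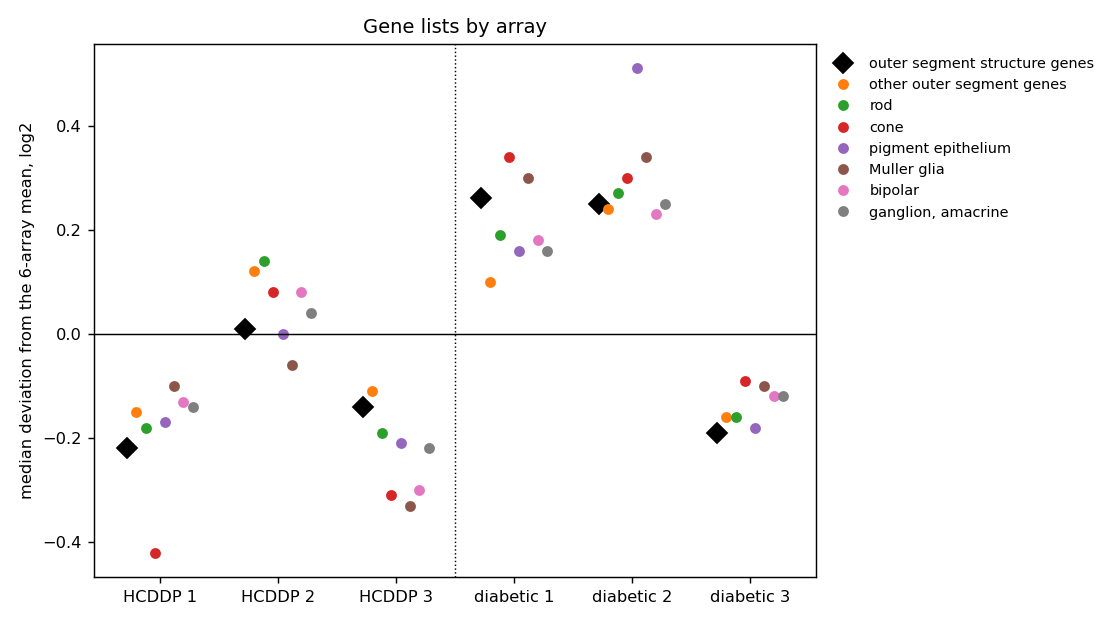
Median deviation from each gene's mean over the 6 arrays (log2) of the outer segment genes (black diamonds), the other outer segment genes and 6 lists of retinal markers (coloured circles), by array, with the HCDDP arrays left of the diabetic arrays. The outer segment genes reach 0.26 and 0.25 on diabetic arrays 1 and 2 and -0.19 on diabetic array 3, and all plotted lists are above 0 on diabetic arrays 1 and 2 and below 0 on diabetic array 3.

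The marker genes with the smallest p showed that members of 1 list did not move alike. Sag, the rod arrestin, had log2 signals of 12.35, 12.41 and 12.17 in HCDDP and of 12.87, 12.89 and 12.47 in diabetic retinas, with no overlap and a log2 difference of -0.44, which misses the fold (limma, p = 0.0403; exact permutation p = 0.1). Nrl, the transcription factor that sets rod fate, had log2 signals of 9.28, 9.57 and 9.22 in HCDDP and of 9.11, 8.56 and 9.09 in diabetic retinas. The Nrl difference of 0.44 was above 0 and not past the threshold (limma, p = 0.0631; exact permutation p = 0.1). Other marker genes lower past the threshold were Clu in the Müller list (-0.96), Pcp2 in the bipolar list (-1.18), Otx2 in the pigment epithelium list (-0.66) and Gja3 in the lens list (-0.63). Gnb3 (-0.54) and Opn1sw (-0.41) had the smallest p of the cone list, Slc6a9 (-0.40) and Gad1 (-0.37) of the ganglion and amacrine list. The next smallest p in their lists belonged to Vim (-0.40), Grm6 (-0.52), Mlana (-0.47) and Cryba2 (-0.56), none past the threshold. The leading genes outside the retina were Kera (-1.10) and Prelp (-0.94) of the stroma and, beside Fabp2, Si (-1.24) of the intestine.

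The outer segment genes were also set against the rod markers on the same array, by subtracting the median deviation of the rod markers from each gene. This reference was chosen after the data were seen. Impg1 then had log2 signals of 8.58, 8.67 and 8.48 in HCDDP and of 9.04, 9.42 and 8.85 in diabetic retinas, without overlap, a difference of -0.53. Impg2 had 9.68, 9.72 and 9.67 in HCDDP and 10.41, 10.64 and 9.77 in diabetic retinas, also without overlap, a difference of -0.59. The exact two-sided permutation p was 0.1 for each, the smallest possible with 3 arrays against 3, and 2.06% of all genes were lower without overlap on this scale.

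Fscn2 still overlapped between the groups on the rod-adjusted scale, at 7.08, 7.22 and 7.32 in HCDDP and 7.81, 7.25 and 7.41 in diabetic retinas, a log2 difference of -0.28. The other 6 genes had log2 differences of -0.05 to 0.20, with 0.04 for Prph2, 0.20 for Rom1, 0.12 for Abca4 and -0.02 for Prom1. The median over the 9 genes was -0.02, with 5 below 0, after a subtraction that shifts the difference of every gene by the same amount. Relative to the median of all genes on each array, the median was -0.16, with differences of -0.73 to 0.06 and 0 genes without overlap. Relative to the median signal of the rod markers it was 0.25, with differences of -0.32 to 0.46. That median signal was the signal of 1 gene, the rod channel subunit Cnga1, on 5 of the 6 arrays and of Pde6b on 1, and Cnga1 itself had a log2 difference of -0.49, so the 0.25 is largely relative to Cnga1 and not to rod markers in general. Impg2 had the lowest difference of the set under each of these references. Of the 2 references to rod markers, the median signal had been planned and the median deviation had not. Relative to the median signal, Impg1 was lower without overlap (-0.26, exact permutation p = 0.1). Impg2 overlapped between the groups (-0.32, exact permutation p = 0.3). Abca4 was higher without overlap on that scale (0.38, exact permutation p = 0.1). The subtraction shifts the difference of every gene upward by the same amount. The share of all genes without overlap on that scale was not counted, so these separations are not read as results about the 2 genes.

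**Figure D5:**
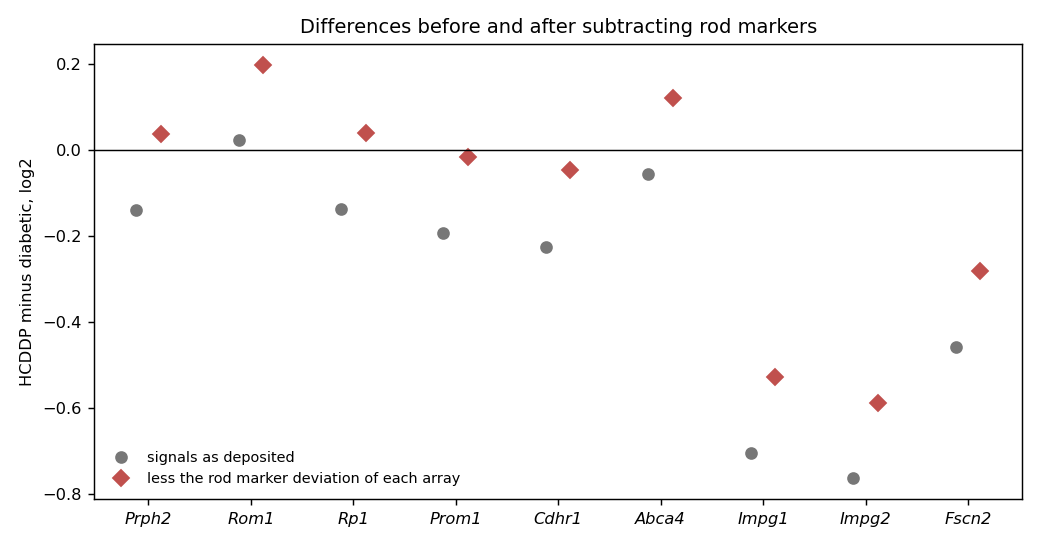
Log2 difference, HCDDP minus diabetic (vertical axis), of each measured outer segment gene from the signals as deposited (grey circles) and after subtraction of the rod markers' median deviation on the same array (red diamonds). The same value is subtracted from every gene on an array, so all differences move up by the same amount. They reach -0.53 for Impg1, -0.59 for Impg2 and -0.28 for Fscn2, and the other 6 genes then lie between -0.05 and 0.20.

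Other genes of the outer segment were read from a list of 57 genes, of which 46 were measured. Of these, 2 were lower past the threshold and 0 higher, beside 2.28% and 0.925% of all genes. The median log2 difference was -0.12. Below 0 were 30 of 46, beside 51.6% of all genes and 59% of those above the median signal. Without overlap between the groups, 1 was lower and 4 were higher, beside 4.30% of all genes lower and 6.43% higher. By role, genes of the connecting cilium and axoneme, 14 measured, had a median of -0.21 and held both calls. Transport genes, 18 measured, had a median of -0.12, other disc membrane genes, 4 measured, -0.08, other matrix genes, 3 measured, -0.18, and genes of the calyceal processes and the periciliary membrane, 7 measured, 0.13.

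Lca5 encodes lebercilin, a ciliary protein that binds the intraflagellar transport machinery. It had log2 signals of 7.72, 7.64 and 7.61 in HCDDP and of 8.48, 8.68 and 7.91 in diabetic retinas, without overlap. The log2 difference was -0.70, standard error 0.22 (limma, p = 0.0118 and adjusted p = 0.782; exact permutation p = 0.1). The call was lost without diabetic array 2, where the difference was -0.54. Rpgr, a regulator of the connecting cilium, had log2 signals of 5.45, 6.33 and 5.69 in HCDDP and of 7.06, 7.10 and 5.92 in diabetic retinas, where diabetic array 3 again lay among the HCDDP arrays. Its log2 difference was -0.87, standard error 0.36 (limma, p = 0.0388 and adjusted p = 0.782; exact permutation p = 0.2). It missed the threshold without HCDDP array 1 (-0.68), HCDDP array 3 (-0.80), diabetic array 1 (-0.69) or diabetic array 2 (-0.67).

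Rab8a, a small GTPase that directs vesicles to the cilium, had log2 signals of 9.17, 8.80 and 8.64 in HCDDP and of 9.63, 9.83 and 8.91 in diabetic retinas. Its difference of -0.59 missed the threshold (limma, adjusted p = 0.782) and passed it with the replicate block (limma, adjusted p = 0.321). The block thus took the list to 3 genes lower, beside 3.47% of all genes. Tulp3, an adaptor for receptor transport into cilia, had log2 signals of 6.62, 6.74 and 6.73 in HCDDP and of 6.32, 6.22 and 6.59 in diabetic retinas. It did not overlap between the groups and had a log2 difference of 0.32 (limma, p = 0.0898; exact permutation p = 0.1). The other 3 genes higher without overlap, named after their values were seen, were Espn (0.21), Cdh23 (0.13) and Myo7a (0.13), an actin bundler and a cadherin and a myosin of the Usher protein network. Their differences were small, and none had a p under 0.05 in the limma fit.

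The genes whose centred log2 profile over the 6 arrays came closest to the mean profile of the 9 outer segment genes were Ttc17, Ccdc6, Smarcd1, Maged1 and Rufy2, with root mean square differences of 0.039, 0.041, 0.043, 0.045 and 0.045. The mean profile itself was -0.26, 0.05 and -0.23 on the HCDDP arrays and 0.26, 0.37 and -0.19 on the diabetic arrays, with a root mean square size of 0.246. None of the 5 is in the list of outer segment genes.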

How the data were processed

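Retinal RNA of 3 HCDDP and 3 diabetic samples was hybridised to Rat Gene 2.0 ST arrays. Scans were processed by the authors in Expression Console 1.41, who deposited 1 log2 signal per array for 36685 probe rows. Background correction, normalization and summarisation were not given in the sources used here, and the signals were used as deposited. The platform annotation gave 1 symbol for 18511 rows, several for 575 and none for 17599. The row with the highest mean per gene was kept, leaving 18166 genes, with no filter on weak signals.

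Groups came from the labels. They were compared by limma 3.58.1 in R 4.3.3 (lmFit, eBayes), with Benjamini-Hochberg adjustment over all genes. Calls used the study's cutoffs on p and fold change with the p of limma in place of the unpaired t-test of its methods, which was run as an alternative. An exact permutation test over 20 assignments was run for single genes. The fit was tested on simulated data. Intervals cover 95%. The number of arrays limits the precision.

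The genes and lists were chosen with earlier results of these data known. Besides all outer segment genes, the text names list genes past the threshold or the 4 with the smallest p, the 2 markers per list with the smallest p, and the 5 genes of closest profile. The labels number the arrays without pairing them. Deviations from the group means correlated between same-numbered arrays at 0.274, 0.292 and 0.445. Arrays correlated at 0.954 to 0.982 and none were identical. Alternatives were the methods' t-test, trend and robust moderation, array weights (statmod 1.5.0), quantile normalization, median centring, other row and signal filters, a fold change over 2, the replicate block and arrays left out. Promoters were from RefSeq GRCr8, the build of which was not set against the array. Python 3.11.15, pandas 2.3.3 and matplotlib 3.10.9 were used.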

Additional observations from a re-analysis of the deposited data

How the results depend on the processing

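The count of 2 outer segment genes lower past the threshold was 0 by the methods' t-test (Impg1 and Impg2 both missed it), 1 after quantile normalization, 1 over all rows of the table, 0 at a fold change over 2 and 0 to 3 with single arrays left out. The count of 2 in the longer list was 1 by the methods' t-test, 5 with array weights, 1 over all rows, 8 without both arrays numbered 3, 0 at a fold change over 2 and 0 to 9 with single arrays left out. The percentages of all genes (or rows) lower past the threshold were 0.595 by the t-test, 2.10 after quantile normalization, 5.85 with array weights, 2.37 over all rows and 6.19 without both arrays numbered 3, against 2.28. The highest counts with a single array left out, 3 and 9, both came without diabetic array 3. The share of all genes lower past the threshold was then 8.21%, and it was smaller without any other single array. Genes of the set without overlap between the groups, 0 as deposited, were 2 after quantile normalization (Impg1 and Fscn2; 6.39% of all genes lower), 5 without both arrays numbered 3 (25.4%) and 0 to 5 with single arrays left out, being 4 without HCDDP array 2 (8.58%), 5 without diabetic array 3 (21.7%) and 0 otherwise. With fewer arrays, groups separate more often. Those past an adjusted p of 0.05 by limma were 0 to 1.

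The median difference of the set stayed below 0, at -0.34 to -0.14 with single arrays left out and -0.03 after quantile normalization. Relative to the median signal of the rod markers, which was Cnga1 alone on 5 of 6 arrays, it was 0.25, the opposite sign to -0.16 relative to the array median. After quantile normalization the differences were 0.22 for Prph2, 0.06 for Rp1 and 0.09 for Abca4. With single arrays left out, Rom1 ran over -0.08 to 0.10, Rp1 over -0.26 to 0, Cdhr1 over -0.42 to 0.06 and Abca4 over -0.20 to 0.05. Impg1 and Impg2 stayed below 0 in all 16 alternatives, with adjusted p by limma or the methods' t-test of 0.0782 to 1 for Impg1 and 0.0381 to 1 for Impg2. With the replicate block 2 genes of the set and 3 of the longer list, Rab8a added, were lower past the threshold, beside 3.47% of all genes. The cause of these changes was not tested.

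Over 9 genes and 16 alternatives, 119 differences kept direction and call, 12 lost the call, 2 gained it and 11 changed sign. Arrays give no depth. The 3 arrays a group limit the precision, and an interval that includes 0 does not show that a gene was equal in the groups.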
